A study of Mus musculus with 18 samples.

Results

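Collagens are the trimeric proteins of the extracellular matrix. Their genes were taken as every gene symbol made of Col, a number, a, and a number, which gave 44 of the 22180 genes measured. Chains are translated into the endoplasmic reticulum, hydroxylated, folded into a triple helix, secreted and then assembled outside the cell. Fibrillar collagens build the load-bearing fibrils. Type IV collagens form the network of the basement membrane that wraps each muscle fibre, type VI collagens form beaded filaments that link that membrane to the fibrils, and the FACIT collagens (fibril-associated collagens with interrupted triple helices) sit on fibril surfaces. In skeletal muscle most matrix collagen is made by interstitial fibroblasts, but cultured myogenic cells also express collagen genes.

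The cells are C2C12, a single mouse line of myoblasts that form multinucleate myotubes by fusion, and their RNA was hybridised to 18 one-colour arrays. Myoblasts grew in 20% fetal bovine serum and were moved to 2% horse serum to differentiate. After 36 h a lentivirus delivered a short hairpin RNA (shRNA), and RNA was taken 48 h after infection. There were 6 arrays per group: a scramble control shRNA, Nup210 shRNA (its target is a nuclear pore membrane protein) and Mef2c shRNA (its target is a transcription factor of muscle genes). All groups therefore carry a lentiviral shRNA, and no array comes from uninfected cells. The labels do not say that arrays of a group are separate cultures, so p-values measure the spread between these arrays, which may be technical.

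Values are the deposited log2 expression values. A gene was called at a limma p under 0.05, adjusted over all 22180 genes, and its background level was taken as 5.47, the 95th percentile of 1390 olfactory and vomeronasal receptor genes. On the Mef2c shRNA arrays Mef2c stood at 7.91 ± 0.21 (SD, n = 6) against 10.39 ± 0.16 in the controls, which is 17.9% of the control level (two-sided exact permutation test, adjusted p = 0.00649 over 6 tests, from the smallest p of 0.00216 that its 924 splits can give). A dimmer Mef2c probe set was at 27.6% of control on the same arrays (exact permutation test, adjusted p = 0.00649). Nup210 stood at 5.65 ± 0.11 (SD, n = 6) on the arrays labelled Nup210 shRNA against 5.75 ± 0.093, 93.1% of control (exact permutation test, adjusted p = 0.12). On the Mef2c shRNA arrays it was at 109% of control (exact permutation test, adjusted p = 0.0823). This Nup210 probe set lies near background and neither difference was called, so "Nup210 shRNA" below names the label. All 10 myotube markers were above background. Of these, 4 were lower with Nup210 shRNA (Myh3, Ckm, Mymk, Casq2) and 2 with Mef2c shRNA (Myh3, Acta1). Their summed linear level was 40773 to 42053 in the controls, 37890.1 to 39981 with Nup210 shRNA and 37836 to 41152 with Mef2c shRNA. For the 6 myoblast and reserve cell markers the sums were 1654 to 2154, 1946 to 2584 and 1808 to 2174. Myf5 was higher in both comparisons with control, Id3 was higher with Nup210 shRNA and Notch3 was lower with Mef2c shRNA. Of 5 fibroblast and fibro-adipogenic markers measured, 4 were above background, Tcf21 was not, and 0 were called in any comparison; their sums were 301 to 353, 299.7 to 359.9 and 317 to 373. All 6 adipocyte markers, 3 of them above background, had a positive difference with Mef2c shRNA (median 0.15, Cebpa called), with sums of 314 to 371 in the controls, 321 to 372 with Nup210 shRNA and 364 to 414 with Mef2c shRNA. Of 5 osteoblast markers 3 were above background and Dmp1 was lower with Mef2c shRNA (sums 210.2 to 231, 207 to 256 and 189 to 231). Of 5 chondrocyte and 4 endothelial markers, 1 each was above background and 0 were called. The part of these markers in the collagen results was not tested. In RNA from whole cultures, fewer cells of a type and less RNA per cell cannot be told apart.

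Of the 44 collagen genes, 34 were above background. Against the control shRNA, 6 of 44 were called with Nup210 shRNA (1 higher, 5 lower) and 10 with Mef2c shRNA (2 higher, 8 lower). In all, 14 genes were called in either comparison and 2 in both, Col6a3 and Col8a1, which were lower each time. The background share in the Nup210 shRNA comparison was 8.16% of all genes (3.05% higher, 5.11% lower) against 13.6% of the collagens. In the Mef2c shRNA comparison it was 10.8% (4.34% higher, 6.42% lower) against 22.7%. All of these calls were of genes above background. Among such genes alone, 13.2% were called with Nup210 shRNA (4.63% higher, 8.52% lower) against 17.6% of the 34 collagens, and 17.2% with Mef2c shRNA (6.50% higher, 10.7% lower) against 29.4%. Both comparisons use the same control arrays, so their calls are not independent. No share over all genes is set beside the 14 collagens called in either comparison or the 2 called in both. These counts therefore show nothing particular to collagens. The median log2 difference over the 44 collagens was 0.028 with Nup210 shRNA and -0.0043 with Mef2c shRNA, close to the 0.015 and 0.020 of all genes. The median collagen therefore lay near the median gene, and the calls sat in a minority of members.

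With Mef2c shRNA, 5 of 11 fibrillar collagens fell and 0 rose (median log2 difference -0.10). With Nup210 shRNA, 1 fibrillar collagen rose and 0 fell (median 0.041). The absence of falls depends on the fit. With the array number as a block, Col1a1 and Col5a3 were called lower with Nup210 shRNA (limma adjusted p = 0.00172 and 0.0176). Of 6 basement membrane collagens, 2 fell with Nup210 shRNA (median -0.013) and 0 were called with Mef2c shRNA (median -0.0043). Among 8 beaded collagens 1 fell in each comparison (medians 0.025 and -0.095). Dim genes move the medians of these small classes: over the 5 beaded members above background they were -0.063 and -0.029, and over the 4 such basement membrane members -0.10 and -0.045. Of 9 FACIT collagens, 0 were called with Nup210 shRNA and 1 rose with Mef2c shRNA (medians 0.084 and 0.073). Of members above background, 10% of fibrillar, 50% of basement membrane, 20% of beaded and 0% of FACIT collagens were called with Nup210 shRNA. With Mef2c shRNA these shares were 50%, 0%, 20% and 14.3%. Over all genes above background they were 13.2% and 17.2%. The shares of 10%, 20% and 14.3% rest on 1 gene each and lie near those of all genes. The remaining 10 genes are 3 short-chain network, 2 multiplexin, 4 transmembrane and 1 anchoring fibril collagen.

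**Figure D1:**
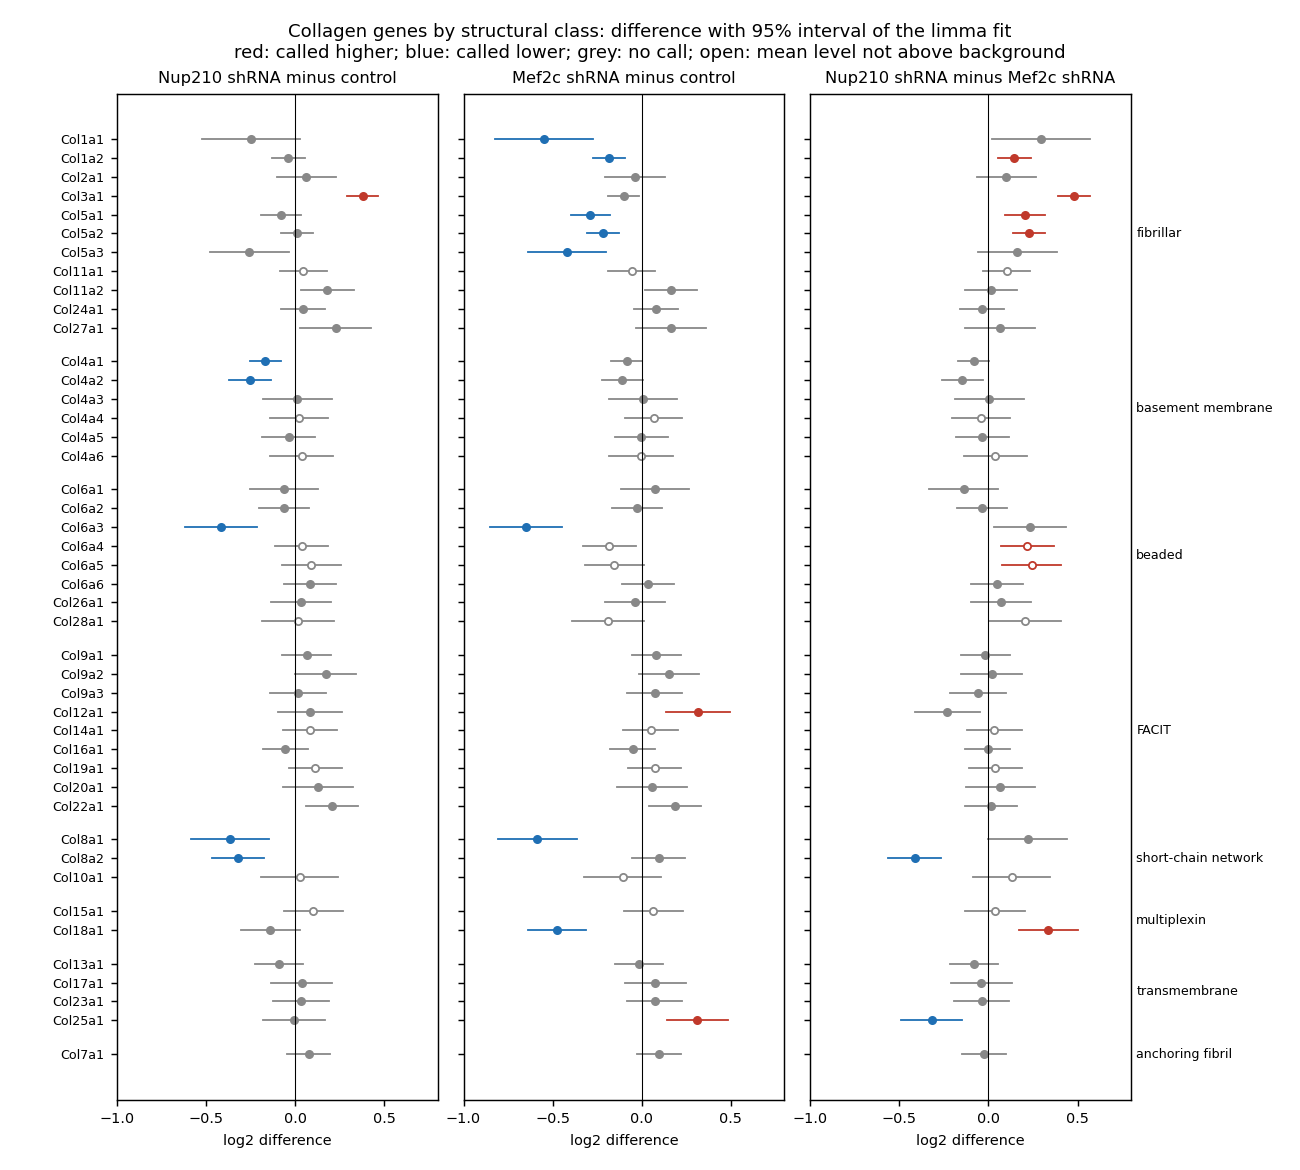
Log2 difference of each of the 44 collagen genes, ordered by class, in the 3 comparisons; bars are 95% confidence intervals from the limma fit, red and blue mark calls higher and lower, grey marks no call and open symbols mark genes not above background. The fibrillar calls lie to the left in the Mef2c shRNA panel, where 5 of 11 fell, and the 2 basement membrane calls lie to the left in the Nup210 shRNA panel.

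Upstream sequences are shown for Col3a1, which rose with Nup210 shRNA, and for Col1a2 and Col5a1, which fell with Mef2c shRNA, so that they can be set side by side. They are RefSeq windows of assembly GRCm38.p6, 250 bases before to 50 after the annotated start, read along the gene. Capitals mark matches to the letters CCAAT (as in the CCAAT box), TATAAA (as in the TATA box) and GGGCGG (as in the GC box). They were searched on either strand and anywhere in the window, so a match need not be a promoter box. A CCAAT on the opposite strand reads ATTGG in the printed line, and a GGGCGG on that strand reads CCGCCC. Col3a1 is at chr1:45311288-45311587 (plus strand), Col1a2 at chr6:4505368-4505667 (plus strand) and Col5a1 at chr2:27886175-27886474 (plus strand).
Col3a1: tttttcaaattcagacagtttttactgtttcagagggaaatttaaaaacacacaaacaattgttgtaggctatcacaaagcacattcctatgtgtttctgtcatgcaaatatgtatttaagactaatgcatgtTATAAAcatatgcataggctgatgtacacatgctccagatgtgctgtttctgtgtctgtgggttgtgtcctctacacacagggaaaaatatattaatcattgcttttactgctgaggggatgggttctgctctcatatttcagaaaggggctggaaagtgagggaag
Col1a2: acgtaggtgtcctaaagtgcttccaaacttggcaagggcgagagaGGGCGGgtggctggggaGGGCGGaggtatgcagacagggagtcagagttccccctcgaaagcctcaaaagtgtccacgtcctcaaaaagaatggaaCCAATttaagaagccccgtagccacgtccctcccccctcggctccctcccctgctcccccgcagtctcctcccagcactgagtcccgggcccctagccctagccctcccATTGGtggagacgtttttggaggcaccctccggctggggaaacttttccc
Col5a1: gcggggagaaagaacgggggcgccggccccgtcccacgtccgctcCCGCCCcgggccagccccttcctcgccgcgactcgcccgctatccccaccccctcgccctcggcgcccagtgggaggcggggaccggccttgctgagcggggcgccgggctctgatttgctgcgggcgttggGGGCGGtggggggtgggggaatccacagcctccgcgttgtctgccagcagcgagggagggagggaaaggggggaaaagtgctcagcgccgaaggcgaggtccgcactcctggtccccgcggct
The Col3a1 window is 37.7% G and C and holds 1 TATAAA and 0 of the other motifs. That of Col1a2 is 61.0% G and C with 2 CCAAT and 2 GGGCGG, and that of Col5a1 is 75.0% with 2 GGGCGG. The median window of all 32851 is 52.7% G and C. Windows of fibrillar collagens without a call also lie above this median. They are 61.7% for Col27a1, 62.3% for Col11a1, 59.0% for Col11a2 and 56.3% for Col24a1. Whether base content goes with the direction of a change was not tested.

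Col3a1 encodes the chain of type III collagen, a homotrimer that co-assembles with type I collagen in compliant tissues. It was the only collagen to rise with Nup210 shRNA. Its log2 level ran from 10.55 through a median of 10.57 to 10.73 in the controls, from 10.91 through 10.96 to 11.06 with Nup210 shRNA, and from 10.40 through 10.50 to 10.56 with Mef2c shRNA. Every Nup210 shRNA array lay above every array of both other groups. The rise was 0.38 ± 0.042 on the log2 scale (SE; 1.30-fold, adjusted p = 1.81e-05). With Mef2c shRNA the difference was -0.10 ± 0.042 (adjusted p = 0.145). Groups that do not overlap in this way were found for 5.63% of all genes in the Nup210 shRNA comparison and for 3 of the 44 collagens.

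Type I collagen, the most abundant fibril protein of the body, pairs 2 chains from Col1a1 with 1 from Col1a2. Both genes fell with Mef2c shRNA. Col1a1 ran from 9.26 through 9.64 to 9.92 in the controls, from 8.97 through 9.43 to 9.67 with Nup210 shRNA and from 8.67 through 9.09 to 9.46 with Mef2c shRNA. Its arrays spread widely and the groups overlap, although all 6 Mef2c shRNA arrays lay below the control mean. Part of this spread follows the array number: array 5 was the lowest and array 6 the highest in every group. The fall was -0.55 ± 0.13 (68.5% of control, adjusted p = 0.00978), and the Nup210 shRNA difference of -0.25 had a 95% interval of -0.53 to 0.025 (adjusted p = 0.302). A limma fit with the array number as a block did call this Nup210 shRNA difference (adjusted p = 0.00172). Col1a2 was far tighter, from 10.41 through 10.45 to 10.52 in the controls, from 10.31 through 10.41 to 10.51 with Nup210 shRNA and from 10.22 through 10.25 to 10.38 with Mef2c shRNA. Control and Mef2c shRNA arrays did not overlap. The difference was -0.18 ± 0.043 with Mef2c shRNA (88.0% of control, adjusted p = 0.00863) and -0.039 ± 0.043 with Nup210 shRNA (adjusted p = 0.688). A dimmer probe set of Col1a2 gave -0.28 with Mef2c shRNA (adjusted p = 0.0377). The interval of the Col1a1 difference, -0.82 to -0.27, overlaps that of Col1a2, -0.28 to -0.093, and the sizes of the 2 falls were not compared by a test.

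Type V collagen initiates fibrils and limits their diameter; its chains come from Col5a1, Col5a2 and Col5a3. All 3 genes fell with Mef2c shRNA, and for each the Mef2c shRNA arrays lay wholly below the controls. Col5a1 ran from 9.43 through 9.47 to 9.51 in the controls, from 9.19 through 9.41 to 9.53 with Nup210 shRNA and from 9.07 through 9.21 to 9.27 with Mef2c shRNA (Mef2c shRNA difference -0.29 ± 0.053, 81.9% of control, adjusted p = 0.00123). Col5a2 ran from 9.76 through 9.84 to 9.88, from 9.76 through 9.83 to 9.94 and from 9.56 through 9.60 to 9.71 (difference -0.22 ± 0.043, 86.0% of control, adjusted p = 0.00247). Col5a3, which gives an alternative chain, ran from 7.58 through 7.70 to 7.87, from 7.09 through 7.53 to 7.58 and from 6.84 through 7.35 to 7.56 (difference -0.42 ± 0.10, 74.7% of control, adjusted p = 0.0126). Control and Mef2c shRNA arrays were apart for 7.74% of all genes and for 7 of the 44 collagens. With Nup210 shRNA none of the 3 was called: the differences were -0.081 for Col5a1, 0.0093 for Col5a2 and -0.26 for Col5a3 (adjusted p = 0.433, 0.942 and 0.161). With the array number as a block, Col5a3 was called lower with Nup210 shRNA (limma adjusted p = 0.0176). A dimmer Col5a1 probe set, at 5.83 on average, gave 0.0033 with Mef2c shRNA (adjusted p = 0.987), and averaging both sets gave an adjusted p of 0.0691. Without control arrays 4 and 6 the Mef2c shRNA adjusted p was 0.0692 for Col1a1 and 0.0533 for Col5a3, while Col1a2, Col5a1 and Col5a2 were still called.

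Col3a1 and Col5a2 are next to each other on chromosome 1. They did not move together with Nup210 shRNA, where Col3a1 rose by 0.38 and Col5a2 differed by 0.0093 (95% interval -0.081 to 0.10); the difference between them was not tested. The other fibrillar collagens above background are the cartilage collagens Col2a1 and Col11a2 and the fibril-forming Col24a1 and Col27a1. None was called in any comparison. Their differences ran from 0.041 to 0.23 with Nup210 shRNA and from -0.039 to 0.16 with Mef2c shRNA. Col11a1, a cartilage chain that overlaps type V in assembly, averaged 5.4691, just below the background level of 5.4704, and was not called either.

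**Figure D2:**
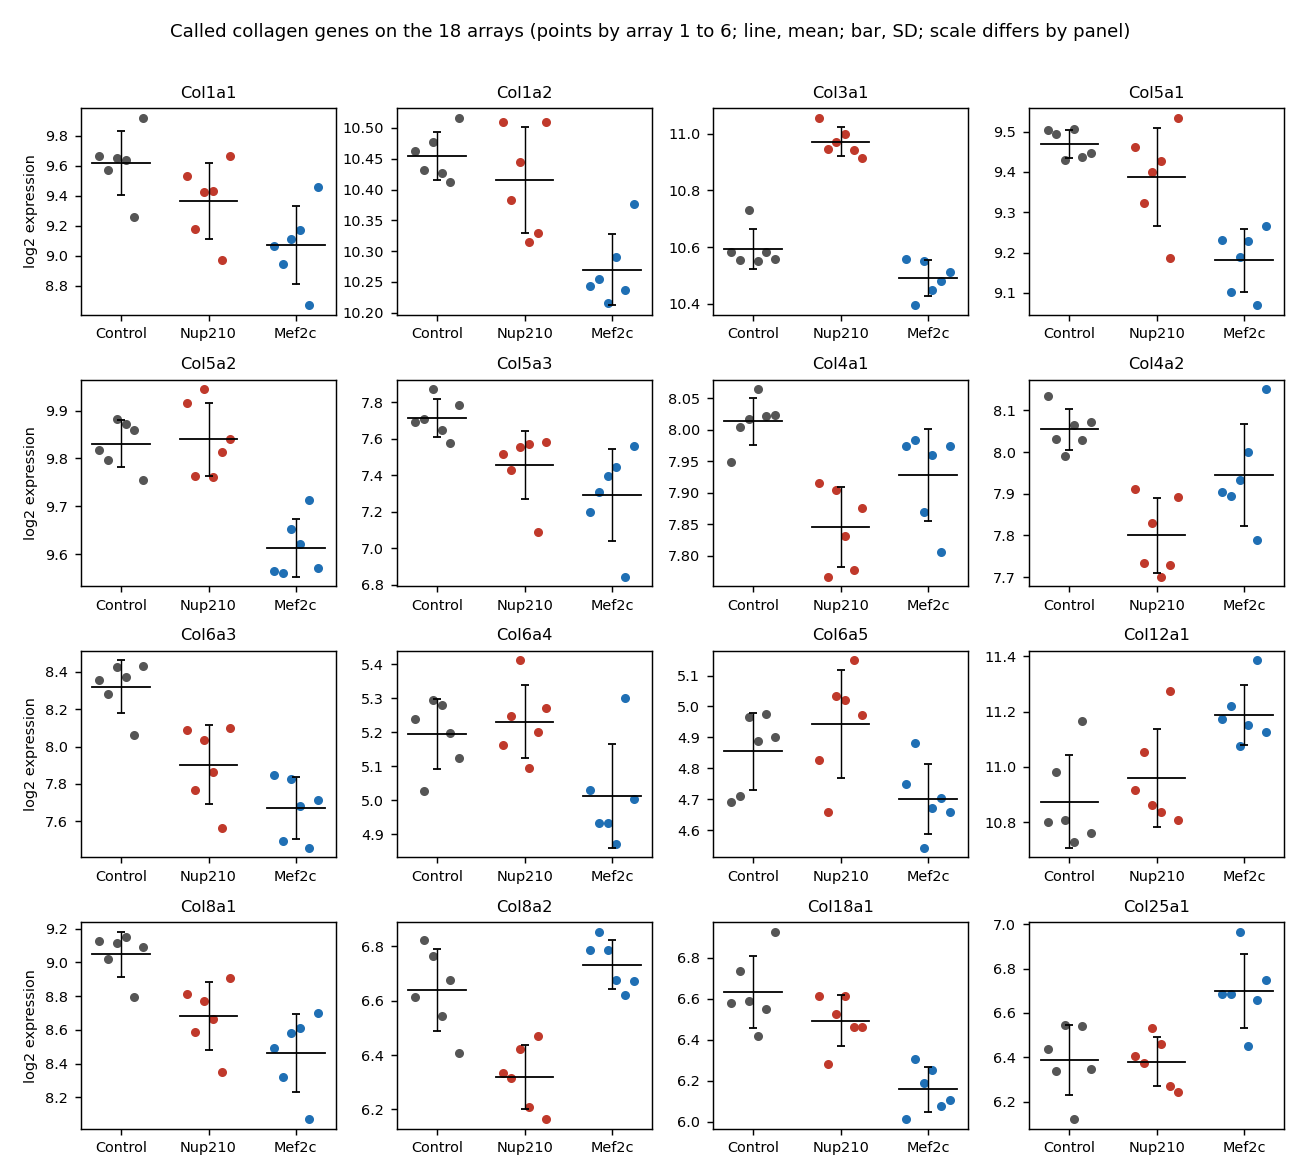
Log2 expression of the 16 collagen genes called in at least 1 comparison, on each of the 18 arrays; points are arrays 1 to 6 of each group, lines are group means and bars are SD. The Col3a1 points of Nup210 shRNA lie above all others, from 10.91 to 11.06, and those of Col1a2, Col5a1, Col5a2, Col5a3 and Col6a3 with Mef2c shRNA lie below the controls.

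Col4a1 and Col4a2 encode the chains of the ubiquitous type IV network. They lie head to head on chromosome 8, and their upstream windows are shown because the pair shares sequence and moved together. The Col4a1 window is chr8:11312777-11313076 (minus strand) and the Col4a2 window is chr8:11312555-11312854 (plus strand), marked and credited as above.
Col4a1: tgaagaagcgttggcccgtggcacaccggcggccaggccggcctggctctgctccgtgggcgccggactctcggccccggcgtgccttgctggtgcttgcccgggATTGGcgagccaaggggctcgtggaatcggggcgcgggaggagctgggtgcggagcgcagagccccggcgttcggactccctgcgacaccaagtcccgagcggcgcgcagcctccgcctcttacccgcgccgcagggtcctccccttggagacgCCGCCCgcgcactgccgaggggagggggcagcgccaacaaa
Col4a2: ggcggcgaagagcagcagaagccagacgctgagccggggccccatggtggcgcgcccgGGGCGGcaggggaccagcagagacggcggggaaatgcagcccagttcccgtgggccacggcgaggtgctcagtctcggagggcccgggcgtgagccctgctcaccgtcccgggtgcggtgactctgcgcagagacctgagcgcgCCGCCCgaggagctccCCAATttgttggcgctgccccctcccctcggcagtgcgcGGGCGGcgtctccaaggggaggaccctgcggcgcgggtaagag
The windows overlap by 78 bases on opposite strands, and are 74.0% and 73.7% G and C. Each holds 1 CCAAT, and they hold 1 and 3 GGGCGG.

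Both genes fell with Nup210 shRNA, and for both the Nup210 shRNA arrays lay wholly below the controls. Col4a1 ran from 7.95 through 8.02 to 8.06 in the controls, from 7.77 through 7.85 to 7.92 with Nup210 shRNA and from 7.81 through 7.97 to 7.98 with Mef2c shRNA. The fall was -0.17 ± 0.042 (89.0% of control, adjusted p = 0.0162). Col4a2 ran from 7.99 through 8.05 to 8.13, from 7.70 through 7.78 to 7.91 and from 7.79 through 7.92 to 8.15. Its fall was -0.25 ± 0.056 (83.8% of control, adjusted p = 0.00677). With Mef2c shRNA both were lower by less than could be called, -0.085 for Col4a1 and -0.11 for Col4a2 (adjusted p = 0.234 and 0.259), and neither was called between the shRNA groups (adjusted p = 0.240 and 0.0999). These small falls depend on which arrays enter. Without Nup210 shRNA arrays 2, 4 and 5, which have the lowest limma array weights, Col4a1 was at -0.11 (adjusted p = 0.290) and Col4a2 at -0.18 (adjusted p = 0.207), and without control arrays 4 and 6 the adjusted p of Col4a1 was 0.0917. The chains of the restricted type IV networks, such as those of kidney and lung, were not called: Col4a3 and Col4a5, above background, gave differences of 0.012 and -0.038 with Nup210 shRNA, and Col4a4 and Col4a6 were not above background.

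Type VI collagen needs a chain each from Col6a1, Col6a2 and Col6a3, and defects in it cause muscle disease in humans. Col6a3, the longest of these chains, fell in both comparisons, while Col6a1 and Col6a2, which are neighbours on chromosome 10, were called in neither. Col6a3 ran from 8.06 through 8.36 to 8.43 in the controls, from 7.57 through 7.95 to 8.10 with Nup210 shRNA and from 7.46 through 7.70 to 7.85 with Mef2c shRNA. The Nup210 shRNA arrays overlap the controls and the Mef2c shRNA arrays do not. The falls were -0.42 ± 0.096 with Nup210 shRNA (74.9% of control, adjusted p = 0.00975) and -0.65 ± 0.096 with Mef2c shRNA (63.8%, adjusted p = 0.000171). The 2 groups differed from each other by 0.23, which was not called (95% interval 0.031 to 0.43, adjusted p = 0.132). With the array number as a block it was called (limma adjusted p = 0.00292).

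For Col6a1 the differences were -0.065 with Nup210 shRNA (95% interval -0.26 to 0.13) and 0.075 with Mef2c shRNA (-0.12 to 0.27). For Col6a2 they were -0.063 (-0.20 to 0.076) and -0.029 (-0.17 to 0.11). The interval of the Col6a3 fall with Mef2c shRNA, -0.85 to -0.45, lies below all of these, but the difference between chains was not tested. A dimmer second probe set of Col6a1 fell by 0.31 with Nup210 shRNA (adjusted p = 0.00513), so the 2 sets of that gene disagree. Without Nup210 shRNA arrays 2, 4 and 5 the Col6a3 difference was -0.25 (adjusted p = 0.238), and without control arrays 4 and 6 its adjusted p was 0.0657. The alternative type VI chains Col6a4 and Col6a5, and Col28a1, were not above background. Col6a6, another alternative chain, and Col26a1 were above background and were not called.

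Col8a1 and Col8a2 encode the chains of type VIII collagen, a short-chain collagen known from Descemet's membrane of the cornea and from vessel walls. Both fell with Nup210 shRNA, but with Mef2c shRNA they parted. Col8a1 ran from 8.79 through 9.10 to 9.15 in the controls, from 8.35 through 8.72 to 8.91 with Nup210 shRNA and from 8.07 through 8.54 to 8.70 with Mef2c shRNA. It was -0.37 ± 0.10 with Nup210 shRNA (77.6% of control, adjusted p = 0.0368), where the groups overlap, and -0.59 ± 0.10 with Mef2c shRNA (66.6%, adjusted p = 0.000983), where they do not. Col8a2 ran from 6.41 through 6.65 to 6.82, from 6.16 through 6.33 to 6.47 and from 6.62 through 6.73 to 6.85. Its difference was -0.32 ± 0.070 with Nup210 shRNA (80.1% of control, adjusted p = 0.00665) and 0.094 ± 0.070 with Mef2c shRNA (adjusted p = 0.474). The Nup210 shRNA call of Col8a1 was lost when any of 8 single arrays was left out, at adjusted p from 0.0579 to 0.092, and at 0.434 without Nup210 shRNA arrays 2, 4 and 5. Without those arrays Col8a2 was at -0.33 (adjusted p = 0.0585). Col10a1, the short-chain collagen of hypertrophic cartilage, was not above background.

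Col18a1, a multiplexin of basement membranes whose cleaved end is endostatin, fell with Mef2c shRNA. It ran from 6.42 through 6.58 to 6.93 in the controls, from 6.28 through 6.49 to 6.61 with Nup210 shRNA and from 6.01 through 6.15 to 6.31 with Mef2c shRNA. Control and Mef2c shRNA arrays did not overlap. The difference was -0.48 ± 0.079 with Mef2c shRNA (71.9% of control, adjusted p = 0.000502) and -0.14 ± 0.079 with Nup210 shRNA (adjusted p = 0.345). Its relative Col15a1 was not above background.

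The FACIT and transmembrane collagens gave the only rises with Mef2c shRNA. Col12a1, which binds fibril surfaces in tendon, muscle and other tissues under load, ran from 10.73 through 10.81 to 11.17 in the controls, from 10.81 through 10.89 to 11.27 with Nup210 shRNA and from 11.08 through 11.16 to 11.38 with Mef2c shRNA. A control array at 11.17 reached into the Mef2c shRNA range. The rise was 0.31 ± 0.086 (124% of control, adjusted p = 0.0227), and with Nup210 shRNA the difference was 0.084 (adjusted p = 0.657). Col25a1, a transmembrane collagen that mouse muscle needs for motor innervation, ran from 6.12 through 6.39 to 6.54 in the controls, from 6.24 through 6.39 to 6.53 with Nup210 shRNA and from 6.45 through 6.69 to 6.97 with Mef2c shRNA. These groups overlap too. Its rise was 0.31 ± 0.082 (124% of control, adjusted p = 0.0186), against -0.0076 with Nup210 shRNA (adjusted p = 0.976). Without control arrays 4 and 6 neither rise was called (adjusted p = 0.151 for Col12a1 and 0.118 for Col25a1), and Col12a1 also lost its call without any of 4 single arrays (adjusted p from 0.0510 to 0.0586).

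Col22a1, a FACIT collagen of the muscle-tendon junction, lay just outside the threshold in both comparisons with control, at 0.20 with Nup210 shRNA (adjusted p = 0.0835) and 0.19 with Mef2c shRNA (adjusted p = 0.0985). Its groups overlap, from 5.45 to 5.73 in the controls, 5.67 to 5.99 with Nup210 shRNA and 5.65 to 5.93 with Mef2c shRNA. When genes not above background were left out of the fit it was called in both (adjusted p = 0.0390 and 0.0494). Just inside the threshold were Col8a1 with Nup210 shRNA (adjusted p = 0.0368) and Col12a1 with Mef2c shRNA (adjusted p = 0.0227). The other FACIT collagens above background, Col9a1, Col9a2, Col9a3, Col16a1 and Col20a1, were not called, with differences from -0.055 to 0.17 with Nup210 shRNA and from -0.050 to 0.15 with Mef2c shRNA. Col14a1 and Col19a1 were not above background. Among transmembrane collagens, Col13a1 of the neuromuscular junction, Col17a1 of hemidesmosomes and Col23a1 were not called. Col7a1, the anchoring fibril collagen of skin, differed by 0.074 and 0.097 without a call.

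The 2 shRNA groups can be compared directly. The control arrays do not enter the difference, but they enter its SE and p-value through the shared spread. In this comparison 9 of 44 collagens were called (20.5%), 7 higher and 2 lower with Nup210 shRNA than with Mef2c shRNA. Over all genes 14.0% were called, 7.10% higher and 6.93% lower, and among genes above background 22.5% were called (11.6% higher, 11.0% lower), against 20.6% of the 34 collagens. The share among expressed collagens is thus near the background. Fibrillar collagens gave 4 of the higher calls and 0 lower, with a class median of 0.15 against -0.0035 for all genes (3 higher when arrays were centred on the median). Col3a1 was higher by 0.48 ± 0.042 (139% of the Mef2c shRNA level, adjusted p = 3.84e-07), Col5a2 by 0.23 ± 0.043 (117%, adjusted p = 0.00113), Col5a1 by 0.21 ± 0.053 (115%, adjusted p = 0.0115) and Col1a2 by 0.15 ± 0.043 (111%, adjusted p = 0.0305). The arrays of the 2 groups were apart for Col3a1, Col5a2 and Col8a2, as for 8.62% of all genes. Col18a1 was higher by 0.34 ± 0.079 (126%, adjusted p = 0.00616). Col8a2 was lower, at -0.41 ± 0.070 (75.0%, adjusted p = 0.000362), and so was Col25a1, at -0.32 ± 0.082 (80.2%, adjusted p = 0.0123).

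The remaining calls, Col6a4 at 0.22 ± 0.070 (adjusted p = 0.0446) and Col6a5 at 0.24 ± 0.079 (adjusted p = 0.0468, just inside the threshold), are of genes not above background. Col6a4 ran from 5.10 through 5.22 to 5.41 with Nup210 shRNA and from 4.87 through 4.97 to 5.30 with Mef2c shRNA. Col6a5 ran from 4.66 to 5.15 and from 4.54 to 4.88. Both pairs of groups overlap, and these genes are neighbours on chromosome 9. The calls of Col6a4, Col6a5 and Col1a2 were lost in 19 of 27, 18 of 27 and 10 of 28 alternative fits. Among these is the limma fit of the 2 shRNA groups without the control arrays (adjusted p = 0.0830, 0.0775 and 0.0870). A dimmer probe set of Col1a2 gave 0.17 (limma adjusted p = 0.211). The Col5a1 call was lost when its probe sets were averaged (limma adjusted p = 0.0787). That of Col25a1 was lost without Nup210 shRNA arrays 2, 4 and 5 (limma adjusted p = 0.0924). Col12a1 lay just outside the threshold, at -0.23 (adjusted p = 0.09). With the array number as a block, Col12a1 was called lower (limma adjusted p = 0.000849). That fit also called Col1a1, Col6a3 and Col8a1 higher with Nup210 shRNA than with Mef2c shRNA (adjusted p = 0.000269, 0.00292 and 0.00738).

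**Figure D3:**
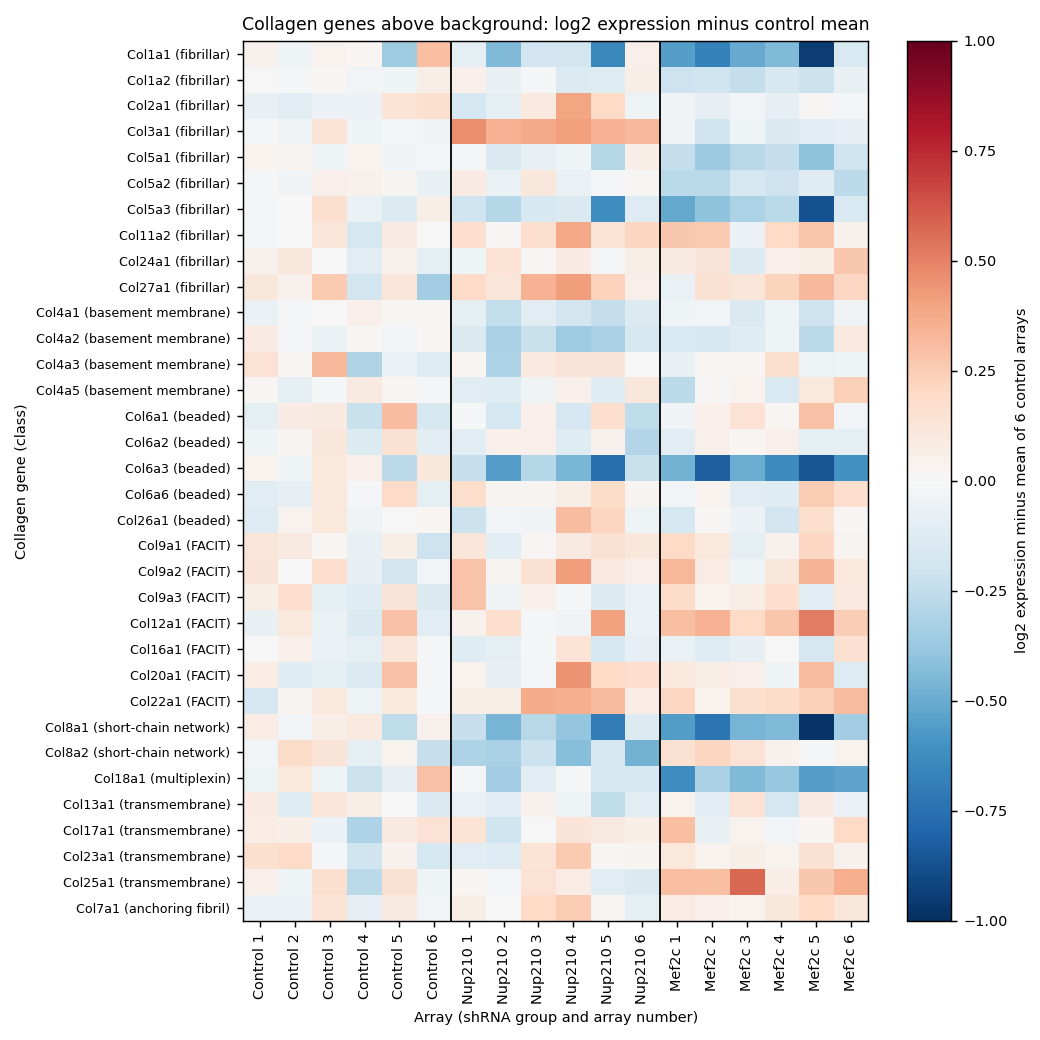
Log2 expression minus the control mean of the 34 collagen genes above background (rows, by class) on the 18 arrays (columns, by group); the colour scale runs from -1 to 1. Col3a1 is higher on all 6 Nup210 shRNA arrays, and Col6a3, Col8a1 and Col18a1 are lower on all 6 Mef2c shRNA arrays.

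Among genes that fold and modify collagen chains, falls outnumbered rises, as they did over all genes. Of 22 measured, 1 rose and 5 fell with Nup210 shRNA (median log2 difference -0.042), and 1 rose and 7 fell with Mef2c shRNA (median -0.097). The medians over all genes were 0.015 and 0.020. The calls are 27.3% and 36.4% of the list, against 8.16% and 10.8% of all genes. This list and the 4 that follow were chosen with earlier results of these data known. Their shares are descriptions and were not tested. Of its 21 genes above background 28.6% and 38.1% were called, against 13.2% and 17.2% of all such genes. Plod2, which hydroxylates telopeptide lysines for cross-linking, rose with Nup210 shRNA by 0.32 ± 0.047 (125% of control, adjusted p = 0.00023). Tmem38b, an endoplasmic reticulum cation channel, was at -0.29 ± 0.052 (adjusted p = 0.00131), and Fkbp14, a prolyl isomerase, at -0.29 ± 0.048 (adjusted p = 0.000801). With Mef2c shRNA the largest falls were those of the prolyl 4-hydroxylase subunit P4ha2 (-0.46 ± 0.10, adjusted p = 0.00627), of Mia3, which loads procollagen for export (-0.45 ± 0.059, adjusted p = 6.28e-05), and of P4ha1 (-0.33 ± 0.040, adjusted p = 2.21e-05). Of these, P4ha1 was also called lower with Nup210 shRNA. Between the groups, Mia3 was 0.52 higher with Nup210 shRNA, Plod2 was 0.43 higher and P4ha3, another prolyl 4-hydroxylase subunit, was at -0.50. Without Nup210 shRNA arrays 2, 4 and 5 the Nup210 shRNA count was 1 higher and 2 lower, and without control arrays 4 and 6 it was 1 and 3. The Mef2c shRNA count without those controls was 0 and 5, with P4ha2 at an adjusted p of 0.0513.

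Of 15 genes that cleave procollagen or cross-link it, 0 rose and 5 fell with Nup210 shRNA (median -0.081) and 0 rose and 4 fell with Mef2c shRNA (median -0.12). Lower calls were 33.3% and 26.7% of the list, against 5.11% and 6.42% of all genes. Of its 10 genes above background 50% and 40.0% were called lower, against 8.52% and 10.7% of all such genes. Lox, the lysyl oxidase that starts fibril cross-links, fell in both, by 0.32 with Nup210 shRNA (adjusted p = 0.00379) and by 0.25 with Mef2c shRNA (adjusted p = 0.0157). Adamts14, a procollagen N-proteinase, was at -0.41 (adjusted p = 0.0227) and the transglutaminase Tgm2 at -0.39 (adjusted p = 0.0372) with Nup210 shRNA. Pcolce2, an enhancer of C-propeptide removal, was at -0.75 ± 0.069 with Mef2c shRNA (59.5% of control, adjusted p = 1.64e-06), and Pxdn, which makes the sulfilimine cross-links of type IV collagen, at -0.45 ± 0.072 (adjusted p = 0.000347). Between the groups, Pcolce2 and Pxdn were 0.63 and 0.37 higher with Nup210 shRNA, and Pcolce was at -0.29. The Nup210 shRNA count was 0 higher and 1 lower without Nup210 shRNA arrays 2, 4 and 5, and 0 and 3 without control arrays 4 and 6, where the Mef2c shRNA count was 0 and 2. Lox was not called with Nup210 shRNA in the former fit (adjusted p = 0.139), nor with Mef2c shRNA in the latter (adjusted p = 0.0989). Adamts14 and Tgm2 lost their calls in 6 and 12 of 28 alternative fits, some of them leaving out a single array.

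Of 15 genes of collagen breakdown and uptake, 2 fell with Nup210 shRNA, and with Mef2c shRNA 1 rose and 2 fell (medians -0.046 and 0.072). These are 13.3% and 20.0% of the list, against 8.16% and 10.8% of all genes, and 28.6% and 42.9% of its 7 genes above background, against 13.2% and 17.2%. The counts are small. Timp3, an inhibitor of metalloproteinases bound to the matrix, fell in both, by 0.23 with Nup210 shRNA (adjusted p = 0.0174) and by 0.45 with Mef2c shRNA (adjusted p = 4.89e-05). Timp2 fell by 0.16 with Nup210 shRNA (adjusted p = 0.00486). The gelatinase Mmp2 rose by 0.40 with Mef2c shRNA (adjusted p = 0.0127) and Timp1 was at -0.45 (adjusted p = 0.0326). Timp1 lost its call without any of 6 single arrays (adjusted p from 0.0585 to 0.0781). Between the groups the uptake receptor Mrc2 and Timp2 were at -0.24 and -0.23, and Timp3 was 0.22 higher with Nup210 shRNA. Without control arrays 4 and 6, Timp2 was the single call left with Nup210 shRNA and Timp3 with Mef2c shRNA. Timp2 was also the single call left without Nup210 shRNA arrays 2, 4 and 5.

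Of 13 collagen receptors, 0 rose and 4 fell with Nup210 shRNA (median -0.12) and 0 rose and 3 fell with Mef2c shRNA (median -0.069). Lower calls were 30.8% and 23.1% of the list, against 5.11% and 6.42% of all genes, and 40.0% and 30.0% of its 10 genes above background, against 8.52% and 10.7%. Adgrg1, an adhesion receptor for type III collagen, fell by 0.77 ± 0.098 with Nup210 shRNA (58.5% of control, adjusted p = 6.68e-05) and by 0.53 ± 0.098 with Mef2c shRNA (69.2%, adjusted p = 0.00129). Cspg4, a proteoglycan that binds type VI collagen, fell by 0.45 and 0.35 (adjusted p = 0.000538 and 0.00303). Itga11, the integrin chain that pairs with beta 1 to bind type I collagen, fell by 0.63 ± 0.092 with Nup210 shRNA (64.5%, adjusted p = 0.000248) and was at -0.72 against Mef2c shRNA (adjusted p = 2.47e-05). Adgrg6, which binds type IV collagen, was at -0.29 with Mef2c shRNA (adjusted p = 0.000829) and was also called lower with Nup210 shRNA. Antxr1 and Antxr2 differed between the groups at -0.22 and 0.15. The receptor counts were 4 and 3 also without control arrays 4 and 6, and the Nup210 shRNA count was 4 without Nup210 shRNA arrays 2, 4 and 5.

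Of 22 partners in fibrils and basement membranes, 3 rose and 6 fell with Nup210 shRNA, and 2 rose and 3 fell with Mef2c shRNA (medians -0.014 and -0.0038). These are 40.9% and 22.7% of the list, against 8.16% and 10.8% of all genes, and 50% and 27.8% of its 18 genes above background, against 13.2% and 17.2%. Lama2, the laminin chain of the muscle basement membrane, rose in both, by 0.35 ± 0.068 (adjusted p = 0.00275) and 0.25 ± 0.068 (adjusted p = 0.0225). The small proteoglycan Bgn was at -0.29 with Nup210 shRNA (adjusted p = 6.62e-05) and its relative Prelp at -0.32 (adjusted p = 0.0413). With Mef2c shRNA, Aspn, another small proteoglycan, was at -0.65 ± 0.18 (adjusted p = 0.0236), and Nid1, which joins laminin to type IV collagen, at -0.32 (adjusted p = 0.000563). Nid1 was also called lower with Nup210 shRNA. Between the groups Aspn was 1.03 higher with Nup210 shRNA, the laminin chain Lamb1 was 0.39 higher and Lamb2 was at -0.33. Without Nup210 shRNA arrays 2, 4 and 5 the Nup210 shRNA count was 1 higher and 3 lower, and without control arrays 4 and 6 it was 2 and 3. In the former fit Lama2 was not called (adjusted p = 0.0845). Prelp lost its call in 12 of 28 alternative fits, and Aspn and Lama2 with Mef2c shRNA in 4 and 5.

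**Figure D4:**
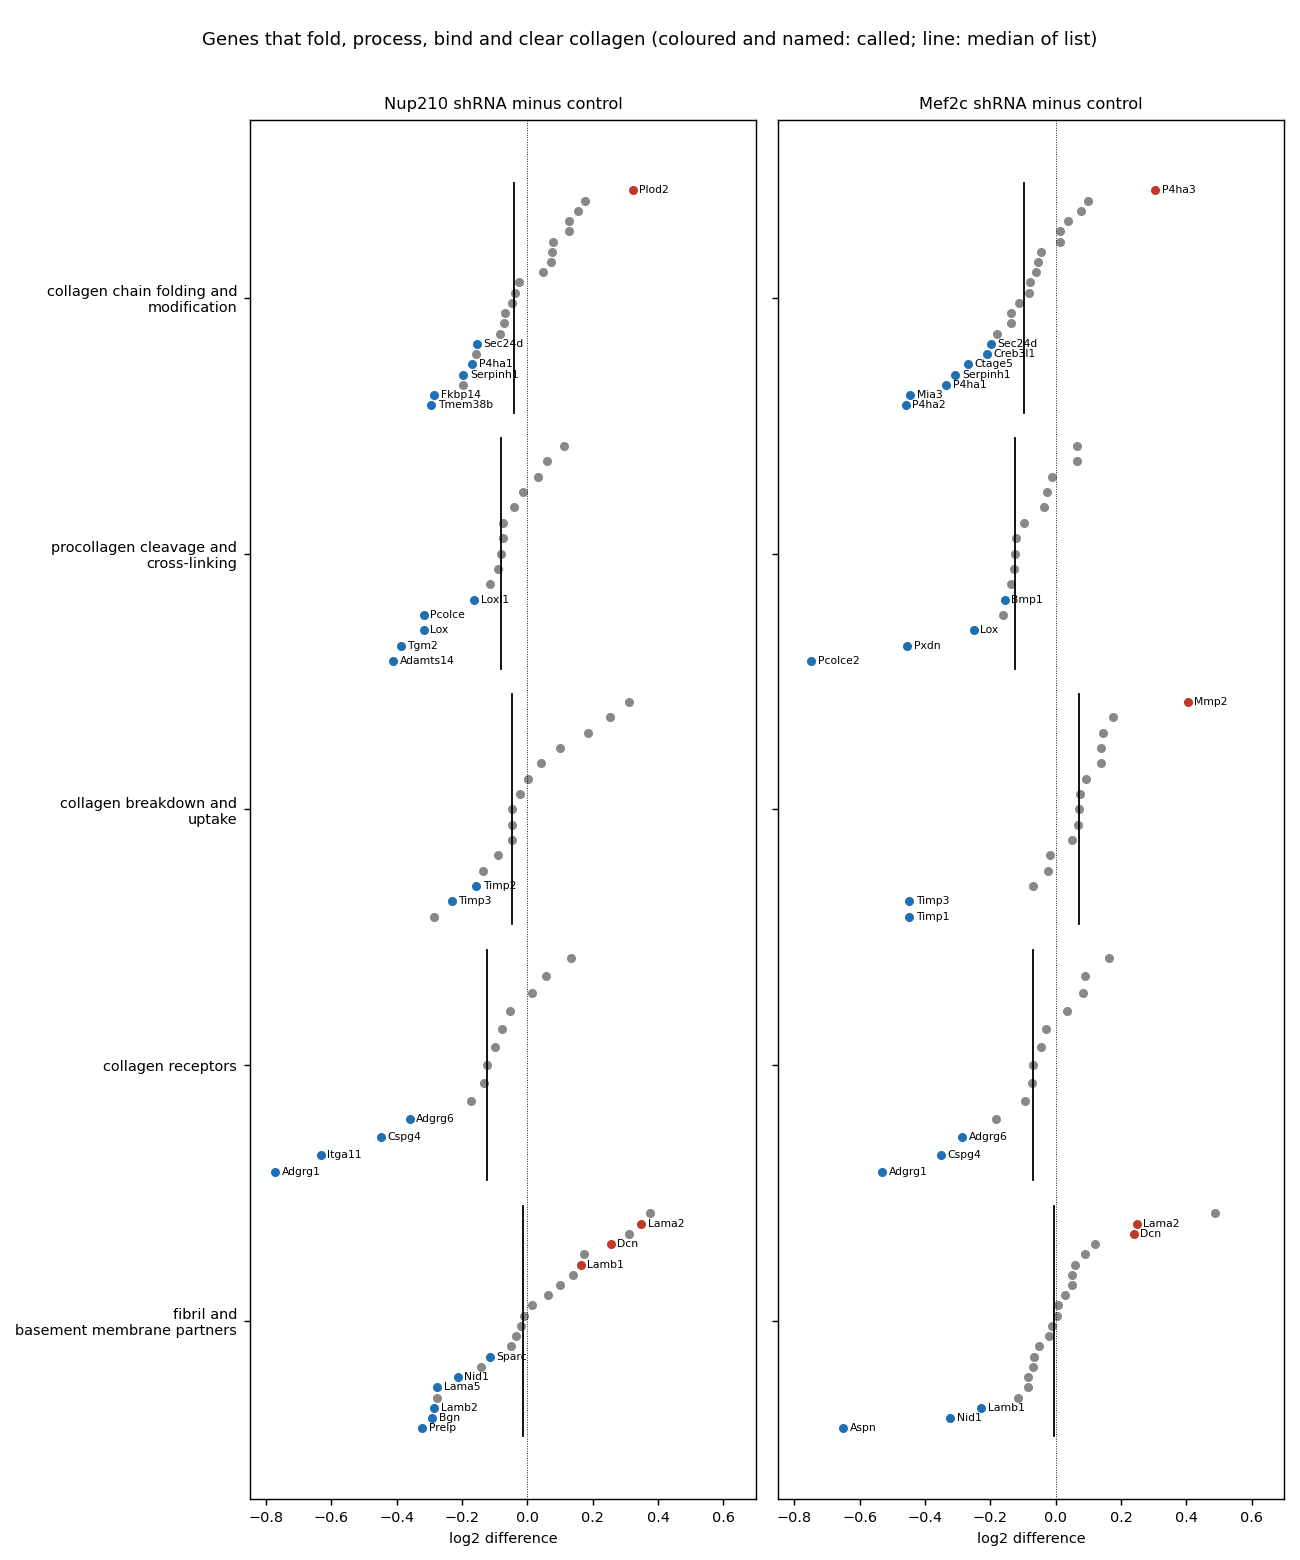
Log2 difference from control of the measured genes of 5 lists, with Nup210 shRNA and with Mef2c shRNA; coloured, named points are calls and the line in each row is the list median. Receptor calls lie below 0 in both panels, with Adgrg1 the farthest at -0.77 and -0.53.

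RefSeq upstream windows were found for 35 of the 44 collagen genes, 38 windows in all, and searched on both strands. GGGCGG was in 23 of them (60.5%) against 35.7% of all 32851 windows, CCAAT in 13 (34.2% against 37.4%), TATAAA in 5 (13.2% against 13.6%) and CAGCTG in 7 (18.4% against 16.3%). The MEF2 consensus motif was in 0 of 38, against 0.557% of all windows. These are counts of letters in short windows and are not evidence of binding or its absence.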

How the data were processed

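The authors deposited 1 log2 value per probe set and array. RMA and Partek are the tools named in the submitters' processing notes, without versions. With RMA, background is corrected, arrays are quantile-normalized and probes are summarized, which shrinks differences of dim genes. Scan dates and batches were not tested, since no label names them. Array medians were 5.90 to 6.00, and the number of arrays limits the precision.

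Probe sets were named from the platform annotation (23521 with 1 symbol, 1814 with several, 16010 with none). Of the singly named ones, 23328 were matched to the RefSeq gene table of GRCm38.p6, which changed 0 symbols. The brightest probe set per symbol by its mean over 18 arrays was used. The collagens had 47 such probe sets, 3 genes having 2, and 1 further probe set shared by several symbols was left out.

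The limma fit (version 3.58.1 in R 4.3.3) gave each group a mean over all 18 arrays, with default eBayes and 15 residual degrees of freedom. P-values of the 3 contrasts were adjusted by Benjamini-Hochberg over 22180 genes. The typical SE of a difference was 0.080. The fit was tested on simulated data. Targeted genes were compared by exact permutation tests. Lists were described by counts and medians, with no test.

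The members, classes, lists and markers were chosen with earlier results of these data known. Named were all called or above-background collagens, those beside the threshold, their disagreeing probe sets, neighbouring collagens, and per list and contrast the 3 called genes with the largest difference. Plod3, Fkbp10, Adamts2, Loxl2, Mmp15 and Itga10 were not analysed here.

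Alternatives were a replicate block, only the groups compared, median centring, renewed quantile normalization, averaging probe sets, leaving out dim genes, a trended robust prior, array weights, a threshold of 0.01 and leaving out each array. Fits without Nup210 shRNA arrays 2, 4 and 5 or without control arrays 4 and 6, and the alternatives for genes of the 5 lists, were added after seeing the data.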

Additional observations from a re-analysis of the deposited data

Results flagged for a closer look

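Each group of 6 arrays was examined for a single array far from the others, in which the gap to the nearest array, as a share of the whole range, exceeds Dixon's 95% critical value. Of 108 such groups of 36 named collagen genes, 5 had one, and chance alone gives about 1 in 20, or 5.4 here.

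Col3a1 on control array 3 stood at 10.7311, above the next array at 10.5822 and the lowest at 10.5522. Col5a3 on Nup210 shRNA array 5 stood at 7.0888, below the next at 7.4268 and the highest at 7.5823. Col8a1 on control array 5 stood at 8.7944, below 9.0215 and 9.1497. Col4a3 on Nup210 shRNA array 2 stood at 5.1970, below 5.5116 and 5.6359, and Col6a4 on Mef2c shRNA array 5 stood at 5.3001, above 5.0304 and 4.8709. The last gene is not above background.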

How the results depend on the processing

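With Nup210 shRNA against control, the 6 collagen calls became 1 without Nup210 shRNA arrays 2, 4 and 5 (Col3a1) and 3 without control arrays 4 and 6. With Mef2c shRNA against control, the 10 calls became 6 without control arrays 4 and 6. Between the shRNA groups, the 9 calls became 4 at an adjusted p under 0.01. The cause was not tested, and each of these fits uses fewer arrays or a stricter threshold. The share of all genes called in these fits is not given, here or for the list counts above. The counts therefore do not show whether collagens lost more calls than other genes. Leaving out each array in turn gave 5 to 6, 9 to 10 and 6 to 9 calls. In all other alternatives these counts stayed within 1.5 times the full count, and no named gene reversed its sign while called. Calls held in all 28 alternatives for Col3a1 (against both groups), Col18a1 and Col5a2 (Mef2c shRNA against both groups), Col1a2, Col6a3 and Col8a1 (Mef2c shRNA against control) and Col8a2 (between the shRNA groups). Over all named genes, 127 of 4250 alternative values lost a call and 16 gained one.

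The labels number arrays 1 to 6 in every group. The main fit does not pair arrays by number, because no label says that equal numbers share a culture. Deviations of same-numbered arrays correlated from -0.18 to 0.22 over all genes, above 0.1 in 6 of 18 pairs. Each array was also matched with the 6 arrays of each other group. The best match had its own number in 22 of 36 comparisons over all genes. Over the collagens above background it did in 24 of 36. A match picked at random among 6 arrays would have its own number in 1 of 6 comparisons. These matches were not tested, and a pairing by number may exist. If it does, the main fit leaves it out. With the replicate number as a block the collagen calls were 8, 10 and 11. The share of all genes called in that fit is not set beside these counts. They therefore do not show whether collagens changed more than other genes. The block added Col1a1 (adjusted p = 0.00172) and Col5a3 (0.0176) with Nup210 shRNA against control, and Col1a1 (0.000269), Col12a1 (0.000849), Col6a3 (0.00292) and Col8a1 (0.00738) between the shRNA groups, where it removed Col6a4 (0.0540) and Col6a5 (0.0607).

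Precision is limited by the number of arrays and, for the 10 collagens not above background, by the low signal.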

Other observations

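Arrays that carry the number 5 stood apart for several collagens in all 3 groups at once. Array 5 was the lowest of its group in every group for Col1a1, Col5a3, Col6a3 and Col8a1, which is 4 of the 34 collagens above background (11.8%), against 5.37% of the 13010 genes above background. It was the highest in every group for Col12a1, Col6a1 and Col6a6 (8.82% against 2.26%). Array 6 was the highest in every group for Col1a1 and Col1a2 (5.88% against 2.86%), and array 3 for Col13a1 and Col25a1 (5.88% against 1.35%). Over the collagens above background, deviations of same-numbered arrays correlated from -0.24 to 0.75, above 0.1 in 15 of 18 pairs, which is a description across genes of the same arrays. Of the genes named for array 5, Col1a1, Col5a3, Col6a3, Col8a1 and Col12a1 are also among those called with Mef2c shRNA. The labels do not say what the number stands for. The fit with the number as a block, given above, added calls of Col1a1, Col5a3, Col6a3, Col8a1 and Col12a1.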
